A study of Homo sapiens with 5 samples.

Results

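The proteasome genes measured here are the 50 protein-coding genes of GENCODE v44 whose names begin with PSMA, PSMB, PSMC, PSMD, PSME, PSMF or PSMG, out of 61220 genes matched to the deposited transcripts. They comprise 48 subunits, activators, inhibitors and assembly factors, and 2 genes that share the name stem only: PSMC3IP, a meiotic recombination factor, and PSME3IP1, which encodes a protein that binds PSME3. The 472 member transcripts were summed per gene. Messenger RNA of NCI-H1975 and HCC827, both established lung adenocarcinoma lines, was read as nanopore cDNA at HCC827 shares of 0, 25, 50, 75 and 100% of the RNA mass, with 1 library per share, named below by the NCI-H1975 to HCC827 ratio. Neither line was treated, NCI-H1975 RNA carried the mix A and HCC827 RNA the mix B of synthetic sequin transcripts, and each library started from 1 ng of RNA and went through 16 PCR cycles. The sample labels do not say how many RNA preparations of each line were used. They name no replicate cultures, so the spread about a trend is that between single libraries and does not measure the spread between cultures. Values per library are given in the order of the series, starting with pure NCI-H1975 RNA (100:0), going on through the 75:25, then the 50:50 and then the 25:75 mixture, and ending with pure HCC827 RNA (0:100).

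The proteasome degrades proteins tagged with ubiquitin. Its 20S core is a barrel in which outer rings of alpha subunits (PSMA) gate the entrance and inner rings of beta subunits (PSMB) hold the proteolytic sites. The 19S cap binds ubiquitin chains, unfolds the substrate with a ring of ATPases (PSMC) and removes the chains with its non-ATPase subunits (PSMD). Interferon induces 3 alternative catalytic subunits, which replace the constitutive ones in newly built cores to give the immunoproteasome, and the PSME1 and PSME2 activator, and these favour production of peptides for class I antigen presentation.

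Libraries held 2932250 to 4058751 assigned reads, of which 107518 in all fell on proteasome genes. The mitochondrial share of reads ran from 5.64% to 8.85% and the read-weighted transcript length from 2579 to 2180 bases from pure NCI-H1975 to pure HCC827 RNA, and the mixtures fell in order in both. Epithelial markers were abundant in every library, at a summed 5691 to 16122 CPM (reads scaled to a common library size), and 5 of 6 rose along the series, as did 4 of 4 lung lineage markers. The leukocyte list summed to 10.2 CPM in the 100:0 and 1.52 CPM in the 0:100 library, with PTPRC, CD3E, MS4A1, LYZ and NKG7 at 0 reads in all 5. Fibroblast markers summed to 190 CPM at 100:0 and 7.59 CPM at 0:100, mostly COL1A1. Whether mitochondrial share or fibroblast transcripts bear on the proteasome values was not tested.

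Proteasome genes moved in both directions between the lines. In the alpha ring and the 19S cap, genes that rose stood beside genes that fell, whereas no tested beta subunit or activator fell under either of the scalings described below. Of 48 tested genes, 27 (56.25%) changed with the HCC827 fraction, against 45.7% of all 13492 genes tested. Of these, 18 rose (37.5%, against 23.5% of all genes) and 9 fell (18.75%, against 22.3%), while 21 did not pass, 3 of which had an unadjusted p under 0.05. The slope is the fitted log2 change over the whole range of HCC827 fractions, and the call is an adjusted p under 0.05 in edgeR's quasi-likelihood test with Benjamini-Hochberg adjustment over all genes. Slopes ran from -1.19 for PSMC2 to 2.11 for PSMB10, with a median of 0.18, against -0.035 over all genes. The median absolute slope was 0.59 for the members and 0.66 over all genes. Slopes of genes with few reads carry more counting error, so these medians do not compare the size of change at equal depth. In 20 of 48 members the 5 values ran in order of the mixing ratio (41.7%, against 28.5% of all genes tested), and all 20 were among the 27 called. Tested members held 218 to 7275 reads over the 5 libraries, whereas 10 reads in each of 2 libraries were enough for a gene to be tested. The shares of members and of all genes are therefore not matched for reads. Among genes with at least 10 reads in every library, 48.7% were called, as were 28 of the 48 members.

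These directions depend on the scale. CPM here are scaled by TMM, a method that assumes most genes do not change. Scaling to library totals moved the median slope of all genes from -0.035 to -0.45, and the members' median from 0.18 to -0.24, so that 34 members were called (51.5% of all genes), of which 13 rose and 21 fell (13.3% and 38.1% of all genes). Relative to the median of all genes the members' median was 0.21 higher under either scaling, which shift all genes alike. Removing a trend of each library's values on transcript length gave 31 calls (44.5% of all genes), 16 that rose and 15 that fell (23.3% and 21.2% of all genes), and the members' median was then -0.021, against -0.0059 over all genes. The members that rose had a median read-weighted length of 1187 bases, those that fell 2328 and those with no call 1474. Across the 48 members the Spearman correlation of slope with log length was -0.36, and across all genes -0.19; genes are not independent replicates, and no p is given.

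**Figure D1:**
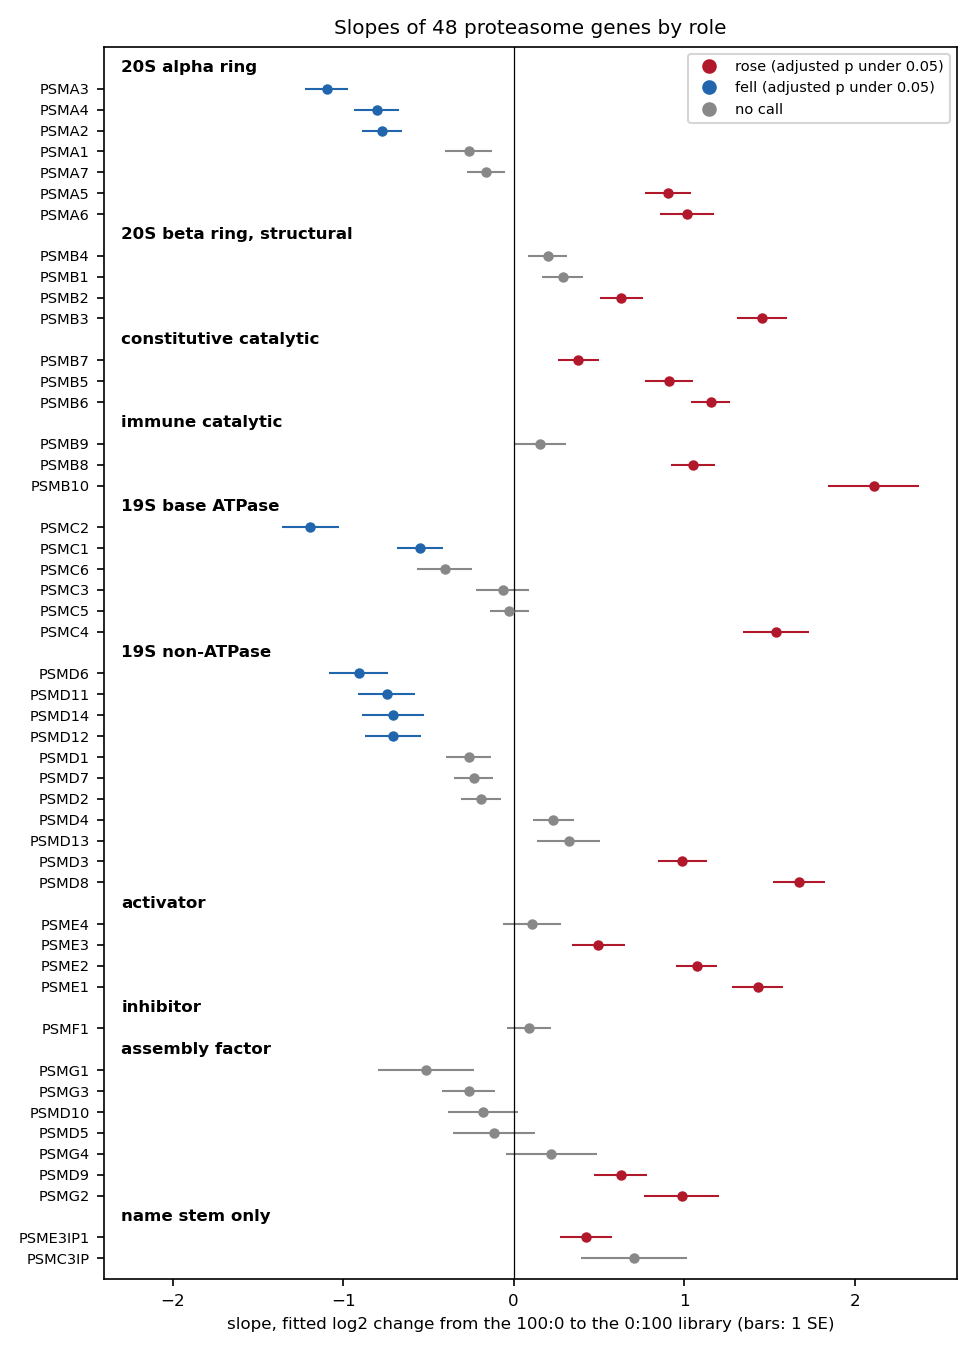
Slope of each of the 48 tested proteasome genes (x axis, fitted log2 change from the pure NCI-H1975 to the pure HCC827 library, TMM scaling; bars, 1 standard error), grouped by role. Red points rose, blue points fell and grey points had no call at an adjusted p of 0.05; slopes run from -1.19 (PSMC2) to 2.11 (PSMB10), and under library totals all of them shift to the left, so that PSMB7 and 8 grey genes with a positive slope lie below 0.

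The constitutive catalytic subunits carry the proteolytic sites of the standard core, and 3 of 3 rose, although PSMB7 had no call under library totals (slope -0.04). PSMB6, the caspase-like subunit (chr17:4796144-4798502 on the plus strand; all coordinates are GRCh38 from GENCODE v44), was at 162, 193, 235, 301 and 353 CPM. It rose by a slope of 1.16 ± 0.11 (SE; adjusted p = 9.12e-06), in order over all 5 libraries. PSMB5, the chymotrypsin-like subunit that is the main target of proteasome inhibitor drugs (chr14:23016543-23035230, minus strand), was at 108, 125, 155, 196 and 189 CPM, and rose by 0.91 ± 0.14 (adjusted p = 0.00019). Its 25:75 value lay above that of pure HCC827 RNA. PSMB7, the trypsin-like subunit (chr9:124353465-124415444, minus strand), was at 168, 183, 185, 192 and 228 CPM, with a slope of 0.38 ± 0.12 (adjusted p = 0.0202). Its mixed libraries lay within 183 to 192 CPM. The call was lost without the 0:100 library (slope 0.23, adjusted p = 0.271), without the 100:0 library (0.41, adjusted p = 0.0512) and with the length trend removed (0.10, adjusted p = 0.513).

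Of the immune catalytic subunits, PSMB8 and PSMB10 rose and PSMB9 had no call. PSMB10, which takes the place of PSMB7 (chr16:67934506-67936864, minus strand), had 39, 119, 145, 156 and 166 reads, or 11.7, 28.1, 38.0, 55.7 and 63.0 CPM. The values ran in order, and the pure HCC827 library held 5.37 times the level of the pure NCI-H1975 library (95% counting interval 3.77 to 7.82). Its slope of 2.11 ± 0.27 (adjusted p = 4.86e-05) was the largest of all 48 members. PSMB8, which takes the place of PSMB5 (chr6:32840717-32844679, minus strand), was at 65.3, 84.9, 99.5, 117 and 139 CPM, also in order, and rose by 1.05 ± 0.13 (adjusted p = 3.97e-05). PSMB9, which takes the place of PSMB6 (chr6:32844136-32859851, plus strand), was at 57.1, 61.7, 60.5, 58.9 and 67.2 CPM. That range is narrow, and its slope of 0.16 ± 0.15 did not pass (adjusted p = 0.422) and was -0.26 under library totals. PSMB8 and PSMB9 lie next to each other in the class II region, with partly overlapping annotations, and PSMB9 shares a divergent promoter with the peptide transporter gene TAP1, which was at 22.3, 21.0, 27.8, 23.2 and 24.3 CPM with no call (slope 0.17 ± 0.25, adjusted p = 0.602). PSMB11, the thymus form of the catalytic subunit, and PSMA8, the testis form of PSMA7, had 0 reads in all 5 libraries, where the limit of 3 reads used for a count of 0 corresponds to 0.709 to 1.14 CPM.

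**Figure D2:**
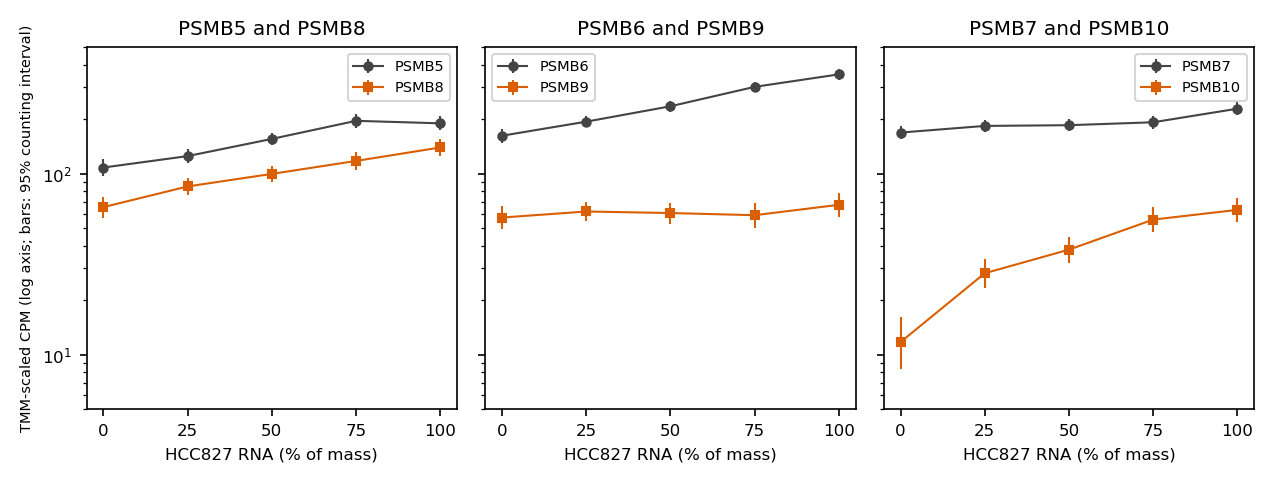
TMM-scaled CPM on a log axis against the HCC827 share of RNA mass (%), with 1 library per point and bars for the 95% counting interval, for each constitutive catalytic subunit (dark circles) and the immune subunit that replaces it (orange squares). PSMB10 runs from 11.7 to 63.0 CPM, PSMB8 follows PSMB5 at a lower level, and PSMB9 stays between 57.1 and 67.2 CPM while PSMB6 goes from 162 to 353.

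The ratio of reads between subunits of the same library does not depend on the scaling, so each immune subunit was set against the constitutive subunit it replaces. As a sum, PSMB8, PSMB9 and PSMB10 made up 23.4, 25.8, 25.6, 25.2 and 25.9% of the reads of all 6 subunits. The log2 ratio of these sums was -1.71, -1.52, -1.54, -1.57 and -1.52, with a slope of 0.13 whose 95% counting interval ran from -0.04 to 0.31. The pairs that make up these sums had slopes of opposite sign. PSMB10 to PSMB7 went from -3.84 through -2.70, -2.28 and -1.79 to -1.86, a slope of 1.96 (two-sided exact permutation p = 0.0333 from the 120 possible library orders, 0.05 when adjusted over the 3 pairs). PSMB9 to PSMB6 went the other way, at -1.50, -1.65, -1.96, -2.35 and -2.39, a slope of -0.996 (exact permutation p = 0.0167, the smallest that 5 libraries allow; adjusted 0.05). PSMB8 to PSMB5 stayed between -0.74 and -0.44, a slope of 0.15 (exact permutation p = 0.433). Neither adjusted value lies under 0.05. With 3 pairs, 1 pair alone at the smallest p cannot get below 0.05 when adjusted, so this does not show that a ratio was unchanged. The slope of the summed ratio was -0.0058 without the 100:0 library, -0.013 over protein-coding transcripts and -0.12 without PSMB10.

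**Figure D3:**
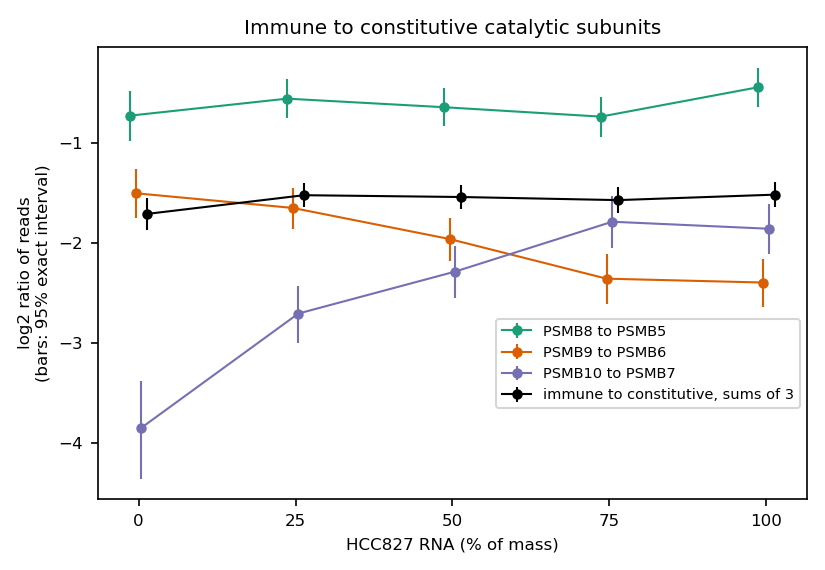
Log2 ratio of immune to constitutive catalytic subunit reads (y axis) against the HCC827 share of RNA mass (%), 1 library per point, bars for the 95% exact (Clopper-Pearson) interval. PSMB10 to PSMB7 (purple) runs from -3.84 to -1.86 and PSMB9 to PSMB6 (orange) from -1.50 to -2.39, whereas the ratio of the sums (black) stays between -1.71 and -1.52.

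Because interferon induces the immune subunits, promoters were searched for the core letters of the interferon response element, GAAA, any 2 bases, GAAA. The RefSeq promoter windows (GRCh38.p14, 250 bases before and 50 after each gene's start) were searched on both strands. A window was found for 44 members, 55 windows in all; none was found for PSMA7, PSMB1, PSMB6, PSMB7, PSMD4 and PSMG3. The letters stood in a window of 7 of the 44 members, and in 3.57% of all 35116 windows. They are shown because 5 of the 7, PSMB8, PSMB10, PSME1, PSME2 and PSMG4, held them in the single form GAAAGCGAAA, a form picked out after the sequences had been read and present in 35 windows of all genes (0.0997%). Each 30-base stretch is written 5′ to 3′ on the gene's own strand, with the match in capitals; where the capitals read TTTCGCTTTC the match is on the opposite strand.
PSMB10: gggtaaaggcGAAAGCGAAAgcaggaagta
PSMB8: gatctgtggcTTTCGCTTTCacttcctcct
PSME1: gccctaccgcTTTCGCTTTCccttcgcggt
PSME2: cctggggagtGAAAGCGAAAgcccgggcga
PSMG4: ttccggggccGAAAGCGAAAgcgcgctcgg
PSMA4: atagtgaagaGAAAATGAAAggagagcgcc
PSMB4: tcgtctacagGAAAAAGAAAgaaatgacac

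These stretches lie at chr16:67936852-67936881 (PSMB10), chr6:32844032-32844061 (PSMB8), chr14:24136189-24136218 (PSME1), chr14:24146619-24146648 (PSME2), chr6:3258904-3258933 (PSMG4), chr15:78540155-78540184 (PSMA4) and chr1:151399495-151399524 (PSMB4); PSMB10, PSMB8 and PSME2 are on the minus strand. In GENCODE v44 the PSMA4 and PSMB4 stretches lie in no exon, the PSMB10 stretch touches an exon of the retained-intron transcript PSMB10-205, and the other 4 touch an annotated untranslated region of some transcripts. Of the 7 genes, 4 rose (PSMB8, PSMB10, PSME1 and PSME2), 1 fell (PSMA4) and PSMB4 and PSMG4 had no call. Of the 35 tested members whose windows lacked the letters, 12 rose and 8 fell. Over all tested genes, 19.9% of 391 with the letters and 23.6% of 9781 without them rose. The window of PSMB9, whose level had no call, did not hold them, which says only that these letters are absent from that window. The 250 bases before the RefSeq start of PSMB10 (chr16:67936851-67937100, minus strand), the member with the largest slope, are given with the match in capitals.
PSMB10 upstream: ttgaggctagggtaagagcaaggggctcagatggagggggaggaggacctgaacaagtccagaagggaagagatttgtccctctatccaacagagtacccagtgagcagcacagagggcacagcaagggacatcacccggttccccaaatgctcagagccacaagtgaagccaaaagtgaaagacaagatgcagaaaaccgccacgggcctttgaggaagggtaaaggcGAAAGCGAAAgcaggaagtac

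Other short promoter motifs were common in the members. The core of the antioxidant response element, TGACNNNGC, which NFE2L1 binds when the proteasome is inhibited, stood in a window of 15 of 44 members and in 13.3% of all windows; 7 of the 15 rose and 2 fell, where 22.8% of the 1992 tested genes with the letters rose. CCAAT boxes were found in 22 members (34.6% of all windows) and GGGCGG boxes in 31 (45.0%). A member can have several windows, so its share of matches is not on the same footing as the share of windows. Rises and falls occurred among members with and without each motif.

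The 11S activator subunits PSME1 and PSME2 both rose, and per kilobase they were among the 6 most abundant members in both pure libraries. In CPM, which are not divided by length, PSME2 lay lower in the order in pure NCI-H1975 RNA. It was at 177 CPM there, below PSMA7 (463), PSMB4 (347), PSMD2 (256), PSMC1 (250), PSMB3 (200), PSMD4 (200) and others. PSME1, the alpha subunit of the interferon-inducible activator (chr14:24136163-24138967, plus strand), was at 246, 340, 429, 619 and 625 CPM, and rose by 1.43 ± 0.15 (adjusted p = 1.25e-05). PSME2, its beta partner (chr14:24143362-24147570, minus strand), was at 177, 212, 246, 329 and 360 CPM, and rose by 1.07 ± 0.12 (adjusted p = 2.05e-05). The PSME1 and PSME2 genes lie close together on chromosome 14, and both ran in order over the 5 libraries. PSME3, the gamma subunit of the nuclear activator, was at 45.1, 52.0, 56.3, 61.4 and 64.1 CPM (slope 0.50 ± 0.16, adjusted p = 0.0191), in order. Its call was lost under library totals (slope 0.08, adjusted p = 0.679), without the 100:0 library (0.42, adjusted p = 0.151), without the 0:100 library (0.57, adjusted p = 0.0589) and in the DESeq2 Wald test (adjusted p = 0.0669). PSME4, the PA200 activator, was at 52.0, 53.4, 62.3, 56.7 and 55.0 CPM with no call (slope 0.11 ± 0.17, adjusted p = 0.629). PSMF1, the PI31 inhibitor and regulator of the core, was at 150, 145, 148, 169 and 150 CPM with no call (slope 0.09 ± 0.13, adjusted p = 0.593). The levels of both in pure HCC827 RNA lay within counting error of those in pure NCI-H1975 RNA, and under library totals their slopes were -0.31 and -0.33, the latter with an adjusted p of 0.0477.

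Alpha ring subunits split. PSMA3, PSMA4 and PSMA2 fell, PSMA6 and PSMA5 rose, and PSMA1 and PSMA7 had no call, although all 7 occupy the same ring. PSMA3 (chr14:58244843-58272012) was at 169, 138, 121, 98.8 and 76.7 CPM, in order, and fell by 1.10 ± 0.13 on the log2 scale (adjusted p = 2.56e-05). PSMA4 (chr15:78540405-78552417) was at 177, 164, 150, 129 and 98.3 CPM (slope -0.80 ± 0.13) and PSMA2 (chr7:42916828-42932185) at 198, 184, 154, 140 and 117 CPM (slope -0.77 ± 0.12), both in order. In the opposite direction, PSMA6 (chr14:35278633-35317493) was at 80.9, 103, 143, 135 and 172 CPM (slope 1.02 ± 0.16, adjusted p = 0.000207), with its 50:50 value above that of the 25:75 library. PSMA5 (chr1:109399042-109426448) was at 80.3, 108, 124, 137 and 158 CPM (slope 0.91 ± 0.13, adjusted p = 0.00016). PSMA7, the most abundant alpha subunit per kilobase, was at 463, 421, 421, 424 and 401 CPM with no call (slope -0.16 ± 0.11). Under library totals the same 2 members rose, and 5 fell, with PSMA1 and PSMA7 added.

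The structural beta subunits, which complete the inner ring, had 2 that rose and none that fell. PSMB3 (chr17:38752741-38764225) was at 200, 316, 403, 462 and 592 CPM, in order, and rose by 1.46 ± 0.15 (adjusted p = 1.04e-05). In pure HCC827 RNA it was the most abundant member per kilobase, but in CPM it lay below PSME1 (625). PSMB2 rose by 0.63 ± 0.12, from 96.2 to 148 CPM, but had no call under library totals (slope 0.22, adjusted p = 0.164). PSMB1 (slope 0.29, adjusted p = 0.0673) and PSMB4 (0.20, adjusted p = 0.181) had no call. Of the 17 tested subunits of the 20S core, catalytic ones included, 9 rose, 3 fell and 5 had no call, with a median slope of 0.38.

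Of the 17 subunits of the 19S cap, 3 rose, 6 fell and 8 had no call, with a median slope of -0.23; under library totals 3 rose and 12 fell. The base ATPases, which thread substrates into the core, moved apart. PSMC4 (chr19:39971165-39981764) was at 21.4, 31.7, 35.4, 54.2 and 63.0 CPM, in order, and rose by 1.54 ± 0.19 (adjusted p = 4.64e-05). PSMC2 (chr7:103328570-103370346) was at 103, 85.8, 74.4, 63.9 and 40.2 CPM, in order, and fell by 1.19 ± 0.17 on the log2 scale (adjusted p = 9.75e-05). PSMC1 also fell (slope -0.55 ± 0.13; without the 100:0 library -0.43, adjusted p = 0.05003), while PSMC3, PSMC5 and PSMC6 had no call at slopes of -0.06, -0.02 and -0.40. PSMC5 lay between 174 and 187 CPM in all 5 libraries.

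Among the non-ATPase subunits, PSMD8 and PSMD3 rose. PSMD8, a lid subunit (chr19:38374563-38383850), was at 56.5, 96.5, 123, 148 and 202 CPM and had the second largest slope among the members, 1.67 ± 0.15 (adjusted p = 6.29e-06). PSMD3, also of the lid (chr17:39980807-39997959), was at 136, 200, 208, 264 and 282 CPM (slope 0.99 ± 0.14, adjusted p = 0.00014). Both ran in order, and pure HCC827 RNA held 3.57 times (95% counting interval 3.02 to 4.24) and 2.08 times (1.85 to 2.34) the level of pure NCI-H1975 RNA. PSMD6 (chr3:64010550-64024010) was at 62.2, 49.4, 47.7, 38.9 and 31.5 CPM and fell by 0.91 ± 0.17 on the log2 scale (adjusted p = 0.00101), and PSMD11 (chr17:32444379-32483319) was at 98.3, 97.9, 94.6, 71.0 and 59.2 CPM and fell by 0.74 ± 0.17 (adjusted p = 0.00274). Without the 0:100 library the slope of PSMD11 was -0.55 (adjusted p = 0.0632). PSMD14, the lid's deubiquitinating enzyme, and PSMD12 fell as well, each with a slope of -0.71. The remaining 5, among them the scaffold subunits PSMD1 and PSMD2 and the ubiquitin receptor PSMD4, had no call, with slopes from -0.26 to 0.32.

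Assembly factors were low and mostly without a call. PSMG2, part of the chaperone pair that starts the alpha ring, was at 20.7, 32.4, 37.5, 42.5 and 44.8 CPM and rose by 0.99 ± 0.22 (adjusted p = 0.00281); without the 100:0 library the slope was 0.64 (adjusted p = 0.0665). Its partner PSMG1 was at 21.7, 18.2, 17.0, 19.6 and 12.9 CPM with no call (slope -0.51 ± 0.28, adjusted p = 0.154), and it fell under library totals (slope -0.93, adjusted p = 0.0142). The levels of these partners therefore did not move in parallel in these libraries, though the difference of their slopes was not tested. PSMG3 was at 71.0, 65.3, 56.8, 58.2 and 60.3 CPM (slope -0.26 ± 0.16, adjusted p = 0.183; -0.68 and 0.00274 under library totals). PSMG4 was at 25.9, 22.7, 26.7, 35.0 and 24.3 CPM (slope 0.22 ± 0.27, adjusted p = 0.526), and without the 25:75 library, the highest, its slope was -0.01. Of the base chaperones, PSMD9 rose (slope 0.63 ± 0.15; no call under library totals, 0.21) and PSMD10 and PSMD5 had no call. Of the genes with the name stem only, PSME3IP1 rose by 0.43 ± 0.15, a call lost when any single library was left out (slopes 0.36 to 0.52) and under library totals (0.010), and PSMC3IP, at 10.2 to 16.3 CPM, had no call.

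As a description of the pure libraries alone, 13 members lay at least 2-fold apart, against 34.6% of all genes. In 11 of the 13 the level was higher in HCC827 RNA (16.3% of all genes) and in 2, PSMC2 and PSMA3, it was lower (18.4% of all genes). The 2 pure libraries scaled to their totals gave 4 higher and 9 lower. That scaling lowers all genes (median slope -0.45), and the share of all genes at 2-fold under it was not counted. The shift is therefore not particular to the members. Members took 0.660, 0.644, 0.638, 0.638 and 0.622% of gene reads, a slope of -0.033 percentage points (95% counting interval -0.044 to -0.022), while their summed TMM-scaled level was 5723, 6086, 6390, 6910 and 7207 CPM; the direction for the whole group is opposite on these scales.

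Constitutive core subunits are built into the particle in equal amounts, but their transcripts were not equally abundant. Per kilobase of transcript, PSMA7 (518 CPM per kb), PSMB4 (439) and PSMB3 (342) led in pure NCI-H1975 RNA. In pure HCC827 RNA the leaders were PSMB3 (995), PSME1 (672) and PSME2 (494). PSMC3IP and PSMD5 were the lowest per kilobase in both, at 7.63 and 10.2 CPM per kb in NCI-H1975 and 11.9 and 8.10 in HCC827. Among the 14 core subunits, immune alternatives left out, the highest and lowest per kilobase were compared. They lay 16.4-fold apart in NCI-H1975 (PSMA7 over PSMA5) and 18.7-fold in HCC827 (PSMB3 over PSMB2). These folds depend on the division by length, and whether it suits these reads was not tested. In CPM without it, the extremes were PSMA7 (463) and PSMA5 (80.3) in NCI-H1975 and PSMB3 (592) and PSMA3 (76.7) in HCC827. PSMB2, with a read-weighted length of 3645 bases, was at 148 CPM in HCC827. Between these libraries the immune subunit PSMB10 moved from rank 43 to rank 22 of the 48 per kilobase. PSMD8 moved from 29 to 13, whereas PSMA3 moved from 7 to 19.

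The mixed libraries allow a check on single values, because each should lie at the weighted mean of the pure ones if all libraries drew on the same RNAs. The weights were the HCC827 share of reads estimated from 10019 genes, 32.7, 55.4 and 78.2% for the 75:25, 50:50 and 25:75 libraries. They lay above the mass shares of 25, 50 and 75%, and the reason was not tested. Each weight was fitted to the reads of the same library, members included. A median near 1 over all genes therefore follows from the fit, and only the scatter of single values is described. Observed member reads were 0.762 to 1.41 times those expected, with a median of 0.999. In 36 of 144 values (25.0%, against 20.6% of values over all genes) the 95% counting interval of the observed reads, which leaves out the error of the pure values, did not hold the expectation. In the 25:75 library PSME1 had 1736 reads where 1468 were expected (1.18 times) and PSMB5 548 where 470 were expected (1.17 times). PSMC1 was at 0.801 times and PSMD13 at 0.762 times the expected reads there, and PSMG4 at 1.41 times. For PSMB5 and PSMC1 these are the values that break the order along the series.

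**Figure D4:**
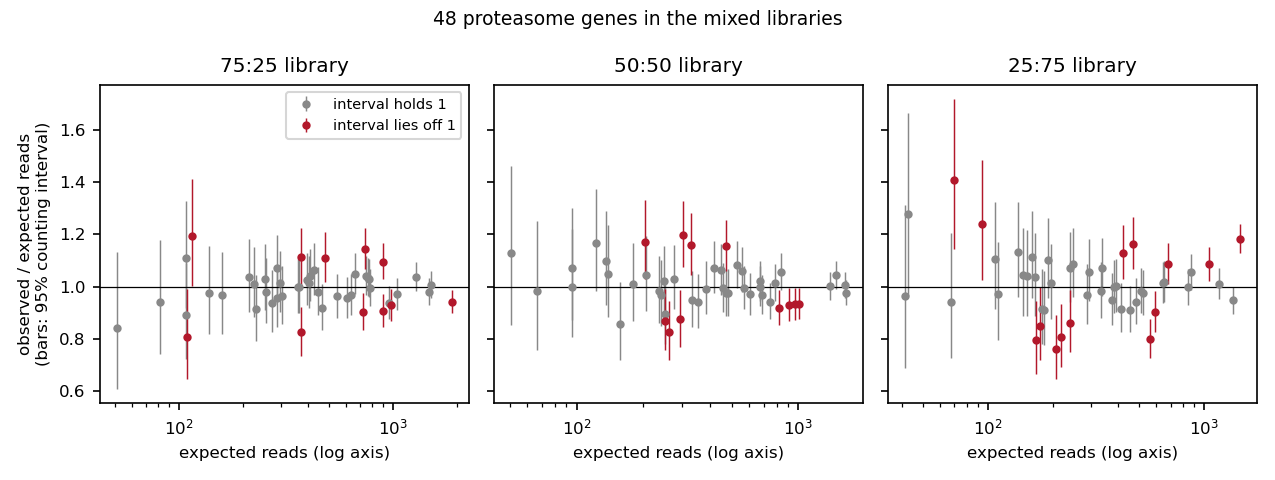
Observed over expected reads of the 48 tested proteasome genes in each mixed library (y axis; bars, 95% counting interval of the observed reads) against the expected reads (log axis). Red points have intervals off 1 (36 of 144 values); ratios run from 0.762 (PSMD13) to 1.41 (PSMG4), both in the 25:75 library.

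Of 175 member transcripts tested, 73 were called, 45 that rose and 28 that fell (33.6, 17.5 and 16.1% of all 31758 transcripts tested), in 29 genes, and no gene had calls in both directions. PSMB10-201, the full-length coding transcript, and PSMB10-203, a retained-intron form, held 18, 54, 63, 74 and 89 and 18, 44, 58, 66 and 65 reads, and both rose (slopes 2.26 and 1.99). Isoform usage was tested in 44 member genes with edgeR's diffSpliceDGE. No member passed (0.402% of all 7455 genes tested did), and 2 had an unadjusted Simes p under 0.05 (3.85% of all genes), PSMD12 and PSMD1. PSMD12-207, annotated for nonsense-mediated decay, held 48, 42, 33, 9 and 14 reads, or 18.3, 14.4, 14.7, 6.77 and 10.2% of the gene. PSMD1-202 held 18.8, 16.9, 11.7, 12.2 and 11.03% of the reads of PSMD1. These shares were lower at the HCC827 end, and the gene-level F test of the same tool called 0 members, with 2 at an unadjusted p under 0.05.

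Of 22 proteasome genes outside the naming rule, 5 rose, 4 fell and 13 had no call, shares near the 23.5% and 22.3% of all genes. POMP, the chaperone of beta ring assembly, was at 67.1, 81.8, 86.2, 113 and 112 CPM (slope 0.78), and ADRM1, a ubiquitin receptor of the cap, rose by 0.82. SEM1, the small lid subunit, was at 386, 369, 326, 268 and 198 CPM (slope -0.95), the deubiquitinase USP14 fell by 0.64 on the log2 scale, and the proteasome-bound ligase UBE3C by 0.93. NFE2L1, the transcription factor for proteasome genes, had no call (slope -0.11, adjusted p = 0.478). Of 17 interferon and class I genes, 5 rose (HLA-F, STAT2, ERAP1, IRF9 and HLA-B), 4 fell (ERAP2, TAP2, B2M and HLA-C) and 8 had no call, also near the shares over all genes. IRF1, a transcription factor that induces immune subunits, had no call (slope 0.05, adjusted p = 0.849).

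Under TMM scaling, the median slope of chromosomal neighbours had the same sign as the slope of the members that changed. For each member, the slopes of all other tested genes within 1 Mb on either side were summarised, other members left out, a window picked after values had been seen. The median slope of the neighbours had the member's sign in 18 of 18 that rose and 9 of 9 that fell, whereas the same held for 73.0% of all 6140 called genes with neighbours. When genes overlapping the member were left out the counts were 26 of 27 and 72.2%. PSMD6, among those that fell, had only 3 tested neighbours. Some medians lay near 0 (0.029 for PSMB7, -0.034 for PSMC1, -0.069 for PSMD14 and -0.079 for PSMC2). Library totals lower the slopes of all genes, and the agreement of signs was not tested under that scaling. PSMC4, on chromosome 19, had 36 tested neighbours, of which 22 rose and 1 fell (median slope 1.36). PSMD8, on the same chromosome, had 35, of which 21 rose and 5 fell, and PSMB3, on chromosome 17, had 23, of which 14 rose and 1 fell. PSMA3, on chromosome 14, had 9, of which 8 fell and none rose. Other called members had few or mixed calls around them: PSMG2 rose where 1 neighbour rose and 3 fell, PSMB7 rose where 2 rose and 3 fell, and PSMC1 fell where 3 rose and 3 fell. Over the 46 members with at least 5 neighbours, the Spearman correlation of member and neighbour slopes was 0.76, and over 12358 genes 0.40. These sets of genes were not matched for reads. All points share the 5 libraries, and several members have overlapping windows, among them PSME1 with PSME2, PSMB8 with PSMB9 and PSMC4 with PSMD8, so no p is given. PSMB10 went furthest beyond its neighbours, at 2.11 against a median of 0.50. PSMB9 had 53 neighbours, as did PSMB8, with a median of 0.72, but no call.

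**Figure D5:**
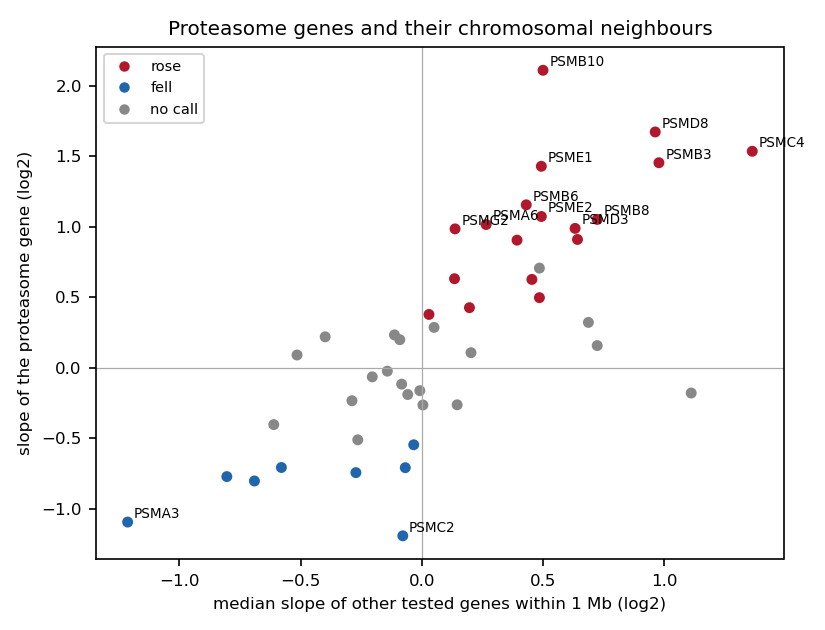
Slope of each proteasome gene (y axis, log2) against the median slope of the other tested genes within 1 Mb (x axis, log2), TMM scaling. The 46 members with at least 5 tested neighbours are drawn, coloured by call (red rose, blue fell, grey no call). The 18 red points lie right of 0 and all blue points left of it. PSMD6, which fell and had 3 tested neighbours, is not drawn. PSMB10 sits at 2.11 above a neighbour median of 0.50.

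Some member counts may share reads with overlapping genes, since the sources used here do not state whether strand was used in counting. An overlapping gene with at least 20% of the member's own reads, a limit set after seeing the values, existed for 12 members. PSMB10 overlaps ENSG00000261884 on the same strand, which had 35, 73, 76, 80 and 86 reads and a slope of 1.53. PSMC2 overlaps PMPCB on the same strand (slope -0.34) and DNAJC2 on the other (-0.44). PSMA3 overlaps PSMA3-AS1, at 47.8 to 15.2 CPM (slope -1.62), PSMA6 overlaps ENSG00000258790 (1.14), PSMG2 overlaps SPIRE1 (-0.67) and PSMB8 and PSMB9 overlap each other and PSMB8-AS1 (-0.51, no call). PSMC1 overlaps NRDE2 (-0.69) and PSME3 overlaps BECN1 (-0.49, no call). Among called members, PSMB10, PSMA3, PSMA6, PSMC2 and PSMC1 thus had the sign of these overlapping genes. PSMG2 and PSME3 had the opposite sign, as had PSMB8 to PSMB8-AS1 but not to PSMB9. The other members with such a gene, PSMB9, PSMC3IP, PSMC5 and PSMD5, had no call. How reads were split between such pairs was not tested.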

How the data were processed

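Nanopore cDNA reads of 5 libraries were assigned to transcripts by the authors, who deposited 1 table per library of transcript lengths in bases and unscaled estimated counts per transcript. The submitters' processing notes name minimap2 2.24, Salmon 1.9.0 and GRCh38, and the annotation release is not given in the sources used here. Transcripts were matched without version to GENCODE v44: 224076 of 227751 human identifiers matched, holding 98.6% of human reads. The 161 identifiers listed again were summed, and the 2 counts that were not whole were rounded. Deposited counts were summed per gene and tested with edgeR 4.0.16 in R 4.3.3 (quasi-likelihood test of the slope on HCC827 mass fraction over all 5 libraries, TMM, at least 10 reads in at least 2 libraries, Benjamini-Hochberg over 13492 genes, threshold 0.05). The standard error is the absolute slope divided by the square root of F. A mixture is curved on the log scale, so slopes understate large ratios. Isoform usage used diffSpliceDGE with Simes p-values. Scripts were tested on simulated data.

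Members, lists and tests were chosen with earlier results of these data known. The named genes are the 6 catalytic subunits, the activators, PSMF1, PSMG1 to PSMG4, PSMA8, PSMB11, the 6 other called members with the largest slopes in each direction, and, for isoforms, the 2 genes with the smallest Simes p; other members are named by role. The planned permutation p of the summed catalytic ratio and of the share of reads is not given, since both are scores over members, and counting intervals stand in its place. Alternatives were DESeq2 1.42.0 size factors and Wald test, library totals, other filters, limma 3.58.1 voom, the estimated fraction, 2 libraries against 2, leaving out each library, and, added after seeing the data, a length correction and the ratio without PSMB10. The limit set by a count of 0 is 3 reads. Without molecular identifiers, intervals and floors cover counting error only.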

Additional observations from a re-analysis of the deposited data

How the results depend on the processing

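Of the 27 member calls, none was called with the other sign under the 13 other settings of the gene test or the length correction, and 22 were kept under library totals. Members that fell numbered 21 under library totals (38.1% of all genes) and 15 with the length trend removed (21.2% of all genes). With 2 libraries against 2, 15 members were called, 10 that rose and 5 that fell (17.3, 9.32 and 7.97% of all genes). Leaving out each library in turn gave 22 to 26 called, 14 to 17 that rose and 8 or 9 that fell. Over all genes these runs called 30.5 to 44.2%, with 16.9 to 22.4% that rose and 13.6 to 21.8% that fell. Transcripts called numbered 34 with 2 against 2 (23 rose, 11 fell), 59 fell under library totals and 15 under the DESeq2 Wald test. Leaving out each library gave 48 to 71 transcripts called and 14 to 27 that fell. The shares of all transcripts under these settings are not given, so these counts do not set the members apart from other transcripts. At 2-fold, library totals, which lower all genes, gave 4 members higher and 9 lower in HCC827. At 1.5-fold under TMM 16 were higher and 9 lower. Shares of all genes were not counted for these 2 settings. The slope of the immune to constitutive ratio was -0.996 for PSMB9 against PSMB6 alone, 1.96 for PSMB10 against PSMB7 alone and -0.12 without PSMB10. The slope of the members' share was -0.0122 points over protein-coding transcripts, -0.0882 per kilobase and -0.0124 without mitochondrial genes. Under library totals 9 of all members went from a slope above 0 to one below 0. Those among the named genes were PSMB7 (-0.038), PSMB9 (-0.26), PSME4 (-0.31), PSMF1 (-0.33) and PSMG4 (-0.20). PSMF1 also gained a call there in the edgeR test (adjusted p = 0.0477). Slopes of named genes changed sign as well with the length trend removed for PSMB9 (-0.12), and without the 25:75 library for PSMG4 (-0.011, with -0.011 to 0.632 over the libraries left out). The cause was not tested. Among named genes, 17 further values lost their call  and 4 gained one (PSMG1 and PSMG3). No paired analysis was possible because each ratio has 1 library.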

Other observations

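Most reads of proteasome genes came from transcripts annotated as protein-coding, 75.0, 74.9, 74.5, 76.7 and 75.7% along the series. Retained-intron transcripts took 12.7, 12.4, 12.5, 11.4 and 11.9%, and transcripts annotated for nonsense-mediated decay 7.20, 7.46, 7.90, 7.08 and 7.25%. No test was made of these shares. Among catalytic subunits, PSMB10 had the largest retained-intron part: PSMB10-203 held 46.2, 37.0, 40.0, 42.3 and 39.2% of its reads. PSMB8 was divided among 3 coding transcripts, of which PSMB8-203 held 27.6, 31.8, 33.4, 39.2 and 30.8%, and all 3 rose.

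Processed copies of proteasome genes contributed little. Of 44 annotated pseudogenes with these name stems, 7 had reads, 107 in all, or 0.0995% of the member reads.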
